A study of Mus musculus with 8 samples.

Results

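Albumin, a set of plasma carrier proteins and the asialoglycoprotein receptor are products of the hepatocyte, and the transcripts of 8 of their genes were followed in the livers of ethanol-fed mice given adeno-associated virus (AAV). The genes were Alb, Gc, Ttr, Rbp4, Serpina6, Ambp, Asgr1 and Asgr2, chosen by symbol among the 55450 Ensembl genes of the deposited count table. All 8 were found, each symbol matched 1 row, and all 8 passed the filter on low counts. Poly(A) RNA was sequenced from 8 livers of mice on an ethanol diet. Of these mice, 4 had received AAV-H19 (libraries 25 to 28), a virus named for the imprinted long non-coding RNA H19, and 4 had received AAV-Null (libraries 21 to 24). Ethanol feeding and AAV injection were thus common to both groups, and neither livers without ethanol nor livers without AAV were analysed here. The sources used here do not give the strain, sex or age of the mice, the promoter that drives the viral insert, the dose or the length of feeding. Nor do the labels say whether the mice shared litters or days, so the livers may not be independent. The p-values set the difference between the groups against the spread between these livers only.

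Hepatocytes release most of the protein that circulates in plasma, and albumin, the product of Alb, is the most abundant of it and carries fatty acids, bilirubin and drugs. Other hepatocyte proteins are dedicated carriers: the Gc product binds vitamin D and actin, transthyretin (Ttr) carries thyroid hormone, retinol-binding protein (Rbp4) carries vitamin A in a complex with transthyretin, and corticosteroid-binding globulin (Serpina6) carries glucocorticoids. Ambp encodes a precursor that is cleaved into alpha-1-microglobulin, which binds heme, and bikunin, a protease inhibitor. On the hepatocyte surface the subunits encoded by Asgr1 and Asgr2 form the asialoglycoprotein receptor, which takes up plasma glycoproteins that have lost sialic acid and expose galactose. Reduced output of albumin and changed handling of asialoglycoproteins are long known in alcoholic liver disease and in ethanol-fed rodents.

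The table held 63.7 M to 78.8 M count units per AAV-H19 library and 78.3 M to 83.0 M per AAV-Null library. H19 was at 104 to 155 CPM (the standard depth-scaled count, on TMM-scaled library sizes) in AAV-H19 livers and at 0.142 to 1.41 CPM in AAV-Null livers. AAV-Null 22 stood furthest from the rest: its Pearson's r of log2 CPM across genes averaged 0.931 with the other AAV-Null libraries, against 0.942 to 0.949 for those, and 0.962 to 0.965 among AAV-H19 libraries. Levels followed transcript length differently in the groups. Within each library, Spearman's rho across protein-coding genes between length and the deviation from the gene's mean was 0.218 to 0.449 in AAV-H19 and -0.413 to -0.122 in AAV-Null livers. The members have annotated coding transcripts of 1161 to 2034 nt, so a fit that removes the length trend of every library (the length offset) is given beside the results.

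Of the 8 genes, Rbp4 and Asgr1 fell in AAV-H19 livers, none rose, and the other 6 did not pass the test (quasi-likelihood test of edgeR, p under 0.05 after Benjamini-Hochberg adjustment over 16672 genes). Over all genes tested, 6.07% were called lower and 5.6% higher, 11.7% in either direction. The median log2 fold change of the 8 was -0.03, and that of all genes tested was -0.02. The CPM of the groups did not overlap for Rbp4 and Asgr1, lower in AAV-H19, nor for Gc, higher in AAV-H19. Over all genes tested the groups did not overlap in 23.7%, lower in 11.6% and higher in 12.1%. A count of 2 among 8 genes is small, and nothing about the set as a whole is read from it. A gene that did not pass is not thereby shown to be unchanged. Bulk liver RNA cannot tell fewer hepatocytes from less RNA per hepatocyte.

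**Figure D1:**
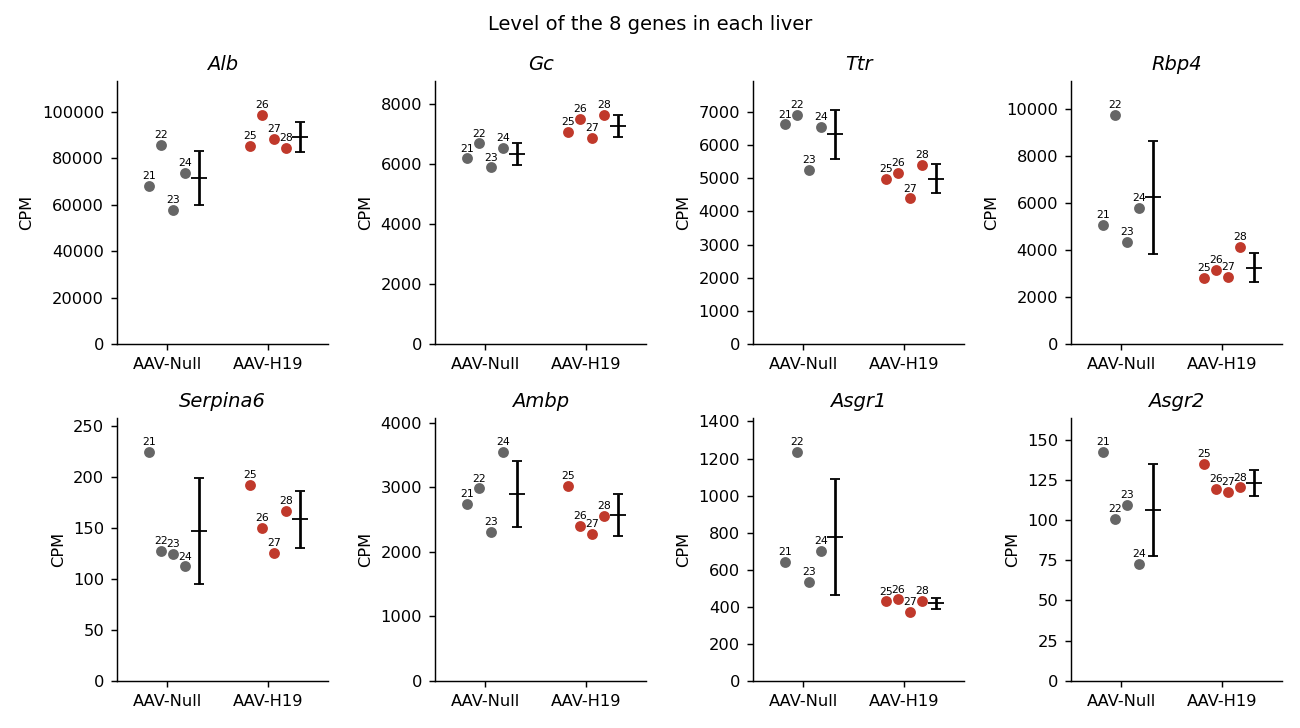
Level in CPM of each of the 8 genes in every liver. Grey points are AAV-Null and red points AAV-H19 libraries with their label numbers, and the bar beside them is the mean ± SD (n = 4). Rbp4 and Asgr1 were lower in every AAV-H19 liver than in any AAV-Null liver, and library 22 was the highest in both.

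Alb (ENSMUSG00000029368) lies on the plus strand of chromosome 5 at 90460897 to 90476602 (GRCm38). It was at 85386, 98404, 88122 and 84467 CPM in AAV-H19 livers 25 to 28, and at 68090, 85708, 57914 and 73500 CPM in AAV-Null livers 21 to 24. AAV-Null 22 reached the range of the AAV-H19 livers and the other AAV-Null livers lay below it. The means were 89095 ± 6397 and 71303 ± 11575 CPM (mean ± SD, n = 4 livers per group), a log2 fold change of 0.32 ± 0.17 (SE), which did not pass (edgeR adjusted p = 0.23). As a share of all counts in the library, Alb took 8.09% to 10.1% in AAV-H19 and 6.59% to 7.71% in AAV-Null livers, and on this scale the groups did not overlap. How many of all genes do not overlap by share was not counted, and the 23.7% above is for CPM. The difference between the scales lies in the library scaling factors: that of AAV-Null 22 was 0.900, which raises its CPM, and the highest, that of AAV-Null 23, was 1.14. Without AAV-Null 22 the log2 fold change was 0.42 (edgeR adjusted p = 0.0693).

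Gc (ENSMUSG00000035540), minus strand of chromosome 5 at 89417522 to 89457898, belongs to the same gene family as Alb and lies 1003 kb from it. It was at 7070, 7509, 6883 and 7631 CPM in AAV-H19 livers 25 to 28, and at 6195, 6694, 5897 and 6553 CPM in AAV-Null livers 21 to 24. Every AAV-H19 liver was above every AAV-Null liver, but the step was small. The log2 fold change was 0.20 ± 0.14 (SE, edgeR adjusted p = 0.378). As a share of all counts the groups touched, at 0.67% to 0.77% and 0.602% to 0.671%. The ratio of Gc to Alb, set within each library and so free of library scaling, differed by -0.13 on the log2 scale, with overlapping groups. Its exact two-sided permutation p was 0.229, and adjusted over the 3 ratios computed it was also 0.229; with the length offset taken off, the difference was -0.07 and the exact p 0.543 (n = 4 each).

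Of the other members of that family at the locus, Afp, the fetal counterpart of Alb, was at 2.60 ± 0.669 CPM with AAV-H19 against 3.97 ± 1.22 CPM with AAV-Null (mean ± SD, n = 4 livers per group). Afm, which encodes the vitamin E carrier afamin, was at 129 ± 6.84 and 146 ± 40.6 CPM. Neither passed (log2 fold changes -0.61 ± 0.31 and -0.18 ± 0.20, edgeR adjusted p = 0.211 and 0.59). Ankrd17, an ankyrin repeat gene that lies between Gc and Alb, rose by 2.13 ± 0.21 in log2 units (edgeR adjusted p = 0.00168), from 16.2 to 71.1 CPM, and was singled out after its values were seen.

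The Alb promoter is shown because several regulators of albumin transcription, described next, differed between the groups. RefSeq's promoter table for GRCm38.p6 holds windows of 300 bases for 6 of the 8 members, and Ttr and Serpina6 have no entry. Each window runs from 250 before to 50 after a start set by RefSeq, from which the motif distances are counted. For Alb, Ambp, Rbp4 and Asgr1 that start differs from the one in the gene positions given here, which come from the GENCODE annotation. Motifs were searched on both strands: GTTAAT (part of the HNF1 site), CAAAGTC (the core of an HNF4A site), CCAAT and TATAAA. They are found in 7.1%, 4.44%, 37.4% and 13.6% of the 32851 windows of the table, and were chosen after the members' windows had been read. Capitals mark the matches. The Alb window, chr5:90460620-90460919 on the plus strand, holds CAAAGTC at 182 to 176 bases, CCAAT at 56 to 52 bases, GTTAAT at 32 to 27 bases and CCAAT on the other strand at 15 to 11 bases before the start. The Gc window, chr5:89457849-89458148 on the minus strand, holds GTTAAT at 52 to 47 bases and CCAAT at 225 to 221 bases before it.
Alb: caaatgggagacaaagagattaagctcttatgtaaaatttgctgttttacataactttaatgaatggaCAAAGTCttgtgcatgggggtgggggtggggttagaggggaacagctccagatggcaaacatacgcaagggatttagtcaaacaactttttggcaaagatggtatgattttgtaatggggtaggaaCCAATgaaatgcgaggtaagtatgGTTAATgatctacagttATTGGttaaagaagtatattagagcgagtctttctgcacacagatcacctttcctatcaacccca
Gc: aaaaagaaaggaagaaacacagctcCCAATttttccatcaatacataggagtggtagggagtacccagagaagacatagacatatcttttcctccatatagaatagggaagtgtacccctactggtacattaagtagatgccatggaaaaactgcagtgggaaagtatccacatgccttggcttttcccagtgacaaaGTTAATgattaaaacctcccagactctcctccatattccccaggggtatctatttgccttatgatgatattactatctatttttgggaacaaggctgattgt
No matched motif overlaps another in these windows, and a match is a description of letters, not of binding.

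Among 12 regulators of albumin transcription, Hnf4a and Prox1 rose, Dbp fell, and 9 did not pass. For this and each later list of genes or markers, the shares over all genes tested were 5.6% called higher and 6.07% lower. The lists are short, and nothing about a list as a whole is read from its count of calls. Hnf4a, a nuclear receptor central to hepatocyte identity, was at 590 to 714 CPM with AAV-H19 against 275 to 421 CPM with AAV-Null, and the groups did not overlap. Its log2 fold change was 0.85 ± 0.18 (SE, edgeR adjusted p = 0.0243). Prox1, a homeobox factor of hepatocyte development, rose by 0.94 ± 0.16 in log2 units (edgeR adjusted p = 0.0134), from 58.7 ± 6.16 to 113 ± 14.2 CPM (mean ± SD, n = 4 livers per group). Dbp, a clock-controlled factor named for its binding to the albumin promoter's D site, fell by 1.47 ± 0.36 (edgeR adjusted p = 0.0336), from 19.6 ± 8.90 to 7.10 ± 1.89 CPM. The median of the list was 0.19, against -0.02 for all genes. None of the 12 passed once the length offset was applied, with log2 fold changes for Hnf4a, Prox1 and Dbp of 0.63, 0.39 and -1.27. Their transcripts are 4362, 7913 and 1837 nt long.

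Albumin recycling was represented by 4 tested genes, none of which passed in edgeR, with a median log2 fold change of -0.24. Of them, 2 had an unadjusted edgeR p under 0.05 and 2 passed in DESeq2. Among all 16672 genes tested, 4968 had an unadjusted edgeR p under 0.05, and DESeq2 called 1635 higher and 2010 lower. B2m, the light chain of the neonatal Fc receptor that returns albumin to plasma, was at 1089 ± 41.4 CPM with AAV-H19 against 1147 ± 196 CPM with AAV-Null (mean ± SD, n = 4 livers per group). Fcgrt, the heavy chain of that receptor, singled out after its values were seen, was at 92.4 to 106 CPM with AAV-H19 against 119 to 141 CPM with AAV-Null, without overlap. Its log2 fold change was -0.40 ± 0.14 (SE, edgeR adjusted p = 0.0869), and -0.20 with the length offset. Among 14 tested other plasma carriers, Ahsg rose and 13 did not pass, with a median of -0.20. Ahsg, which encodes the mineral-binding fetuin-A, was at 8158 to 8897 CPM with AAV-H19 against 5175 to 6336 CPM with AAV-Null. Its log2 fold change was 0.53 ± 0.15 (SE, edgeR adjusted p = 0.0465) and 0.82 with the length offset (edgeR adjusted p = 0.0367), and the groups did not overlap.

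Ttr (ENSMUSG00000061808), on chromosome 18 at 20665280 to 20674321, was at 4987, 5165, 4390 and 5388 CPM in AAV-H19 livers 25 to 28, and at 6615, 6890, 5245 and 6545 CPM in AAV-Null livers 21 to 24. AAV-Null 23 lay within the range of the AAV-H19 livers and the other AAV-Null livers above it. The log2 fold change of -0.34 ± 0.16 (SE) did not pass (edgeR adjusted p = 0.18). With the length offset it was 0.05 (edgeR adjusted p = 0.872). As a share of all counts, Ttr took 0.435% to 0.529% in AAV-H19 and 0.597% to 0.691% in AAV-Null livers. The groups did not overlap on this scale, for which no count over all genes was made.

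Rbp4 (ENSMUSG00000024990), minus strand of chromosome 19 at 38116629 to 38125281, was at 2836, 3154, 2876 and 4151 CPM in AAV-H19 livers 25 to 28. In AAV-Null livers 21 to 24 it was at 5089, 9748, 4359 and 5804 CPM. AAV-Null 22 was far above the rest, and AAV-H19 28, the highest of its group, came closest to the AAV-Null livers. Rbp4 fell by 0.94 ± 0.27 in log2 units (SE, edgeR adjusted p = 0.0485), to 0.521 of its AAV-Null level, from 6250 ± 2406 to 3254 ± 614 CPM (mean ± SD, n = 4 livers per group). Without AAV-Null 22 the log2 fold change was -0.65 and still passed (edgeR adjusted p = 0.0434). The call ended without any of AAV-H19 25, 26, 27 and 28 and without AAV-Null 21 or 24, with adjusted p up to 0.145 and log2 fold changes of -1.08 to -0.88. Calls over all genes, 934 higher and 1012 lower, fell to at most 373 and 325 when 1 AAV-H19 library was left out. They were 818 and 1049 without AAV-Null 21, and 679 and 498 without AAV-Null 24. The Rbp4 call also ended with the length offset, where the log2 fold change was -0.51 ± 0.22 (edgeR adjusted p = 0.207).

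Within each library, the ratio of Rbp4 to Ttr shows how the transcripts of these complex partners moved against each other, and their transcripts are of nearly the same length, 1161 and 1186 nt. Per length, Rbp4 stood at 0.581, 0.624, 0.669 and 0.787 of Ttr in AAV-H19 livers 25 to 28, and at 0.786, 1.45, 0.849 and 0.906 of Ttr in AAV-Null livers 21 to 24. AAV-H19 28 and AAV-Null 21 were level, and apart from this pair the groups did not overlap. The log2 ratio differed by -0.55 (exact two-sided permutation p = 0.0571, and 0.0857 adjusted over the 3 ratios, n = 4 each). With the length offset taken off, the difference was -0.54. Without AAV-Null 22 it was -0.36.

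Of the 2 start windows that RefSeq gives for Rbp4, the one shown, chr19:38124762-38125061 on the minus strand, holds TATAAA at 28 to 23 bases before its RefSeq start. This window lies wholly within the gene positions given above and is the only member window with that motif. It holds 72.0% G and C and 40 CpG pairs, against 40.0% and 3 in the Alb window.
Rbp4: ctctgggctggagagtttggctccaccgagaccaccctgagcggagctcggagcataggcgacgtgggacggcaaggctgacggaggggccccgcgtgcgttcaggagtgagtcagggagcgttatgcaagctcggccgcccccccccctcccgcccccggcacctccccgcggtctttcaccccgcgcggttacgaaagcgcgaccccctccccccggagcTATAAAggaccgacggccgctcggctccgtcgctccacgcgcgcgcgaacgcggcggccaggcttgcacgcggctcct
The other window, chr19:38125272-38125571, holds CCAAT on the other strand and none of the other motifs.

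Of the genes of retinol handling outside the carrier, none of the 14 reported here passed, with a median log2 fold change of 0.05. Of the 14, 4 had an unadjusted edgeR p under 0.05 and 3 passed in DESeq2. Among all 16672 genes tested, 4968 had such a p, and DESeq2 called 1635 higher and 2010 lower. Aldh1a1, the most abundant of them, encodes an enzyme that oxidizes retinal to retinoic acid. It was at 1307 to 1506 CPM in the AAV-H19 livers and at 1883 to 2111 CPM in the AAV-Null livers, and the groups did not overlap. Its log2 fold change of -0.47 ± 0.14 (SE) did not pass (edgeR adjusted p = 0.0612). Without AAV-Null 22, 4 genes of this list were called (edgeR adjusted p = 0.026 to 0.0408). Aldh1a1 was lower, at -0.48, and Cyp26b1, Rarb and Rxra were higher, at 1.06, 1.17 and 0.66 in log2 units. With any other single library left out 0 or 1 gene was called, and with the length offset none.

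Among 8 genes of thyroid hormone handling, Klf9, a transcription factor induced by thyroid hormone and glucocorticoid, rose by 0.96 ± 0.24 on the log2 scale, from 90.5 ± 25.4 to 176 ± 40.0 CPM (SD over 4 livers a group, edgeR adjusted p = 0.0359). Crym, which encodes a cytosolic thyroid hormone-binding protein, fell by 1.02 ± 0.28, from 1.89 ± 0.412 to 0.931 ± 0.146 CPM (edgeR adjusted p = 0.0461). The other 6 did not pass, the median was 0.13, and no call was left with the length offset, where the log2 fold change of Klf9 was 0.68 and that of Crym, -1.004, was about as large as without it (edgeR adjusted p = 0.179 and 0.0831). Serpina7, the thyroxine-binding globulin counted among the other plasma carriers and singled out after its values were seen, was at 44.4, 81.2, 27.7 and 139 CPM in livers 21 to 24 against 18.3 to 36.5 CPM in AAV-H19. It did not pass (log2 fold change -1.46 ± 0.45, edgeR adjusted p = 0.061).

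Serpina6 (ENSMUSG00000060807), minus strand of chromosome 12 at 103646630 to 103657212, was at 192, 151, 126 and 167 CPM in AAV-H19 livers 25 to 28. It was at 225, 128, 125 and 112 CPM in AAV-Null livers 21 to 24. AAV-Null 21 was the highest of all 8 livers and the other AAV-Null livers were at the low end, so the groups overlapped throughout. The log2 fold change was 0.11 ± 0.24 (SE, edgeR adjusted p = 0.804). Without AAV-Null 21 it was 0.38 (edgeR adjusted p = 0.214), and with the length offset 0.35 (edgeR adjusted p = 0.453).

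Of 10 genes that act on glucocorticoids or respond to them, H6pd, Fkbp5 and Per1 rose, none fell and 7 did not pass. Fkbp5, a chaperone of the glucocorticoid receptor and itself a target of it, was at 269 to 437 CPM with AAV-H19 against 89.2 to 209 CPM with AAV-Null. It rose by 1.22 ± 0.27 in log2 units (SE, edgeR adjusted p = 0.0272). H6pd, which supplies NADPH for cortisone reduction in the endoplasmic reticulum, rose by 0.79 ± 0.17, from 322 ± 47.7 to 557 ± 53.6 CPM (SD over 4 livers a group, edgeR adjusted p = 0.0246). The clock gene Per1, also a glucocorticoid target, rose by 1.05 ± 0.24 (edgeR adjusted p = 0.0296). The median of the 10 was 0.25. The transcripts of the 3 called genes measure 3858 to 4745 nt. None of them passed with the length offset, which gave log2 fold changes of 1.07, 0.50 and 0.73 for Fkbp5, H6pd and Per1.

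None of the 3 tested genes of vitamin D handling passed in edgeR, with a median of 0.26. Of the 3, 1 had an unadjusted edgeR p under 0.05 and 1 passed in DESeq2. Among all 16672 genes tested, 4968 had such a p, and DESeq2 called 1635 higher and 2010 lower. Cyp27a1, a sterol and vitamin D hydroxylase, was at 495 ± 52.7 CPM with AAV-H19 against 414 ± 59.7 CPM with AAV-Null (mean ± SD, n = 4 livers per group). Cyp2r1, a vitamin D hydroxylase singled out after its values were seen, was lower in every AAV-H19 liver, at 4.17 to 4.82 CPM against 5.31 to 12.9 CPM. Its log2 fold change was -0.86 ± 0.27 (SE, edgeR adjusted p = 0.0643).

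**Figure D2:**
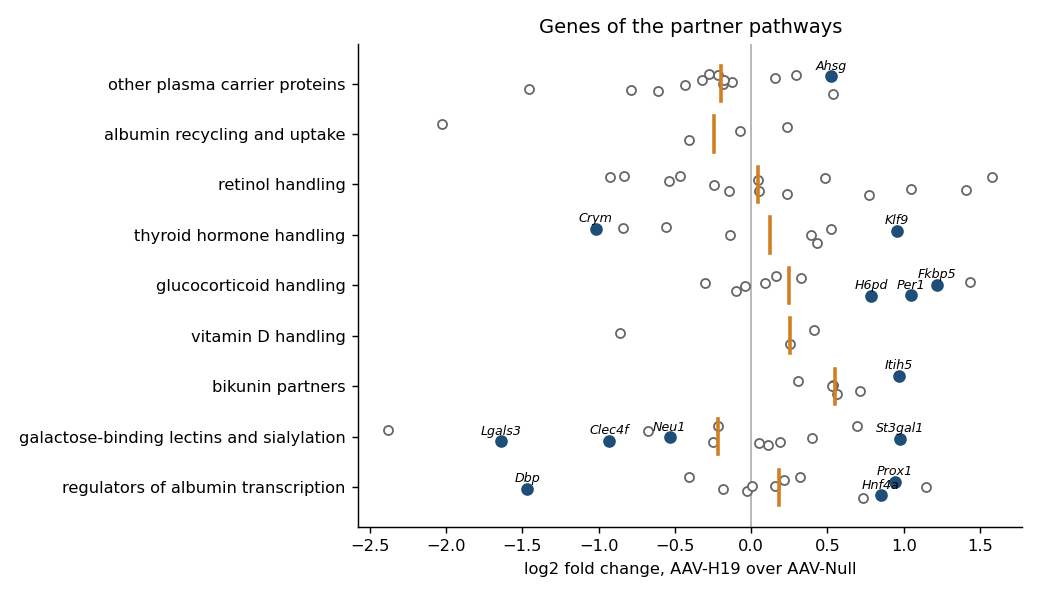
Log2 fold change (AAV-H19 over AAV-Null) of the tested genes in 9 lists of genes that work with the carriers and the receptor. Filled, named points passed an adjusted p of 0.05 in edgeR's test, open points did not, and the orange bar is the list's median. Calls lie on both sides of 0, with 9 higher and 5 lower among 84 tested genes. Over all genes tested, 5.6% were called higher and 6.07% lower.

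Ambp (ENSMUSG00000028356), minus strand of chromosome 4 at 63143275 to 63154799, was at 3016, 2402, 2280 and 2557 CPM in AAV-H19 livers 25 to 28, and at 2737, 2980, 2306 and 3543 CPM in AAV-Null livers 21 to 24. The groups overlapped over most of their range. The log2 fold change was -0.17 ± 0.18 (SE, edgeR adjusted p = 0.56), and 0.20 ± 0.17 with the length offset (edgeR adjusted p = 0.535). Bikunin is joined to heavy chains encoded by genes of the Itih family. The list set beside Ambp holds Itih1 to Itih5 and Tnfaip6. All 6 had positive fitted changes, with a median of 0.55, but among them Itih5 alone passed. Tnfaip6 was near the floor, at 0.549 ± 0.461 CPM with AAV-H19 against 0.380 ± 0.687 CPM with AAV-Null. The sign of its log2 fold change, 0.53 ± 1.38 (SE), is therefore open. Itih5 rose by 0.97 ± 0.23 in log2 units (edgeR adjusted p = 0.0313), from 7.48 ± 2.26 to 14.7 ± 2.04 CPM (mean ± SD, n = 4 livers per group). Its transcript is 7900 nt long and its log2 fold change with the length offset was 0.41 (edgeR adjusted p = 0.374). The abundant liver heavy chain genes Itih1, Itih2, Itih3 and Itih4 had fitted log2 changes of 0.31, 0.54, 0.71 and 0.57, with edgeR adjusted p of 0.22, 0.11, 0.0811 and 0.118. Without AAV-Null 22, 4 of the 6 passed, against 0 or 1 with any other single library left out. None of the 6 passed with the length offset.

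Asgr1 and Asgr2 lie on the plus strand of chromosome 11, at 70054085 to 70057894 and 70092644 to 70106187, and no other gene of the table lies wholly in the 34.8 kb between them. They encode the major and the minor subunit of the asialoglycoprotein receptor. Asgr1 (ENSMUSG00000020884) was at 429, 439, 371 and 433 CPM in AAV-H19 livers 25 to 28, and at 644, 1235, 533 and 700 CPM in AAV-Null livers 21 to 24. The AAV-H19 livers lay close together and all below the AAV-Null livers, of which AAV-Null 22 was far the highest. Asgr1 fell by 0.90 ± 0.25 in log2 units (SE, edgeR adjusted p = 0.0493), to 0.537 of its AAV-Null level, from 778 ± 312 to 418 ± 31.8 CPM (mean ± SD, n = 4 livers per group).

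Without AAV-Null 22 the log2 fold change of Asgr1 was -0.59 and still passed (edgeR adjusted p = 0.0334). The call ended without any of AAV-H19 25, 26, 27 and 28 and without AAV-Null 21 or 24, with adjusted p up to 0.147 and log2 fold changes of -0.98 to -0.84. Calls over all genes, 934 higher and 1012 lower, fell to at most 373 and 325 when 1 AAV-H19 library was left out. They were 818 and 1049 without AAV-Null 21, and 679 and 498 without AAV-Null 24. With the length offset the log2 fold change of Asgr1 was -0.51 ± 0.22 (edgeR adjusted p = 0.2).

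Asgr2 (ENSMUSG00000040963) was at 135, 119, 118 and 120 CPM in AAV-H19 livers 25 to 28, and at 142, 101, 109 and 72.9 CPM in AAV-Null livers 21 to 24. AAV-Null 21 was above and the other AAV-Null livers below the AAV-H19 range. The log2 fold change of 0.21 ± 0.20 (SE) did not pass (edgeR adjusted p = 0.522), and it was 0.53 ± 0.23 with the length offset (edgeR adjusted p = 0.205).

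The ratio of Asgr1 to Asgr2 was lower in every AAV-H19 liver than in any AAV-Null liver. Per length, Asgr1 stood at 3.34, 3.87, 3.31 and 3.78 times Asgr2 in AAV-H19 livers 25 to 28, and at 4.75, 12.9, 5.12 and 10.1 times Asgr2 in AAV-Null livers 21 to 24. The AAV-Null livers fell into a lower and a higher pair, with 22 and 24 the higher. The log2 ratio differed by -1.07, or 2.10-fold. An exact permutation test (two-sided) gave p = 0.0286, the smallest that 4 livers against 4 allow, and adjusted over the 3 ratios it was 0.0857, which does not pass 0.05. Their transcripts measure 1308 and 1373 nt. Once the length offset was taken off, the difference was -1.05, again without overlap. Without AAV-Null 22 it was -0.81.

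**Figure D3:**
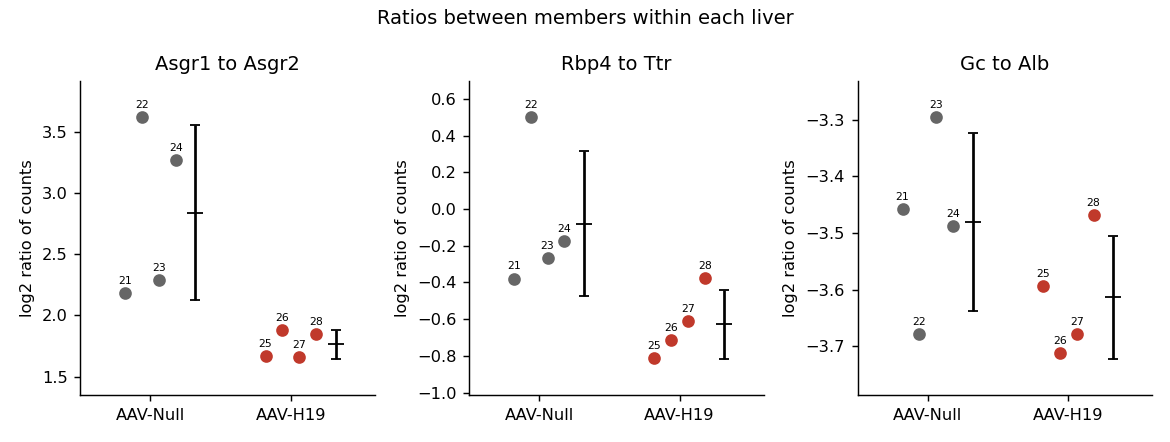
Log2 ratio of counts of Asgr1 to Asgr2, Rbp4 to Ttr and Gc to Alb within each library, with label numbers and mean ± SD (n = 4). For Asgr1 to Asgr2 all AAV-H19 livers (1.66 to 1.88) lie below all AAV-Null livers (2.18 to 3.62), and for the other ratios the groups overlap.

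The start regions of the receptor genes are shown side by side because the ratio of these neighbours was compared above. The Asgr1 window, chr11:70054105-70054404, holds CAAAGTC at 30 to 24 bases before its RefSeq start and lies wholly within the gene positions given above. The Asgr2 window, chr11:70092394-70092693, holds CAAAGTC at 51 to 45 bases before the start. It also holds CCAAT on the other strand at positions 19 to 23 counted from the start base as 1. With Alb, 3 of the 8 member windows hold CAAAGTC.
Asgr1: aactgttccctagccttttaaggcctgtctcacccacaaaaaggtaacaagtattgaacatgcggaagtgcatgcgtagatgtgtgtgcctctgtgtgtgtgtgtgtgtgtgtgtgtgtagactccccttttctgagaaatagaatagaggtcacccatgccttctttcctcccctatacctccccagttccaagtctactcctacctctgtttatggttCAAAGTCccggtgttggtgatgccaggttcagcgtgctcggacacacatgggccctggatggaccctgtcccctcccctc
Asgr2: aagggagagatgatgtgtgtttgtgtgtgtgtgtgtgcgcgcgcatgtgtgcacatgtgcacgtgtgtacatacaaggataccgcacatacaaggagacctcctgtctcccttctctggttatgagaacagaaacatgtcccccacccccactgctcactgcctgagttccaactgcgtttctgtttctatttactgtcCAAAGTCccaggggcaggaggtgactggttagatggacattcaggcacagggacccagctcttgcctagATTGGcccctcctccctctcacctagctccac
RefSeq's other Asgr1 window, chr11:70053874-70054173, holds CCAAT on the other strand and no CAAAGTC.

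Among 13 tested lectins and enzymes that bind exposed galactose or add and remove sialic acid, St3gal1 rose, Clec4f, Lgals3 and Neu1 fell, and 9 did not pass, with a median log2 fold change of -0.21. Clec4f, the Kupffer cell lectin that binds galactose, was at 31.3 to 48.4 CPM with AAV-H19 against 66.8 to 82.4 CPM with AAV-Null. It fell by 0.93 ± 0.18 in log2 units (SE, edgeR adjusted p = 0.0213) and by 0.87 with the length offset (edgeR adjusted p = 0.0405). Lgals3, galectin-3, fell by 1.64 ± 0.35, from 9.34 ± 4.01 to 2.99 ± 0.976 CPM (SD over 4 livers a group, edgeR adjusted p = 0.026). The lysosomal sialidase gene Neu1 fell by 0.53 ± 0.14 (edgeR adjusted p = 0.0421), and the sialyltransferase gene St3gal1 rose by 0.98 ± 0.26 (edgeR adjusted p = 0.0409). Of these 4, Clec4f alone passed with the length offset, where the log2 fold changes of Neu1, Lgals3 and St3gal1 were -0.65, -1.33 and 0.59 (edgeR adjusted p = 0.0566, 0.0854 and 0.163).

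Clec4f and Lgals3 are macrophage genes. Among 10 Kupffer cell and macrophage markers 5 fell, none rose, all 10 had negative fitted changes and none was at 0. With the length offset Clec4f alone of these 5 passed, and the log2 fold changes of the 5, from -1.08 to -0.93 without it, were -0.87 to -0.65. Their summed level was 137 to 196 CPM with AAV-H19 against 210 to 372 CPM with AAV-Null. Among 10 hepatocyte markers, summed at 35714 to 49880 and 29826 to 43664 CPM, Cps1 rose and Apoc3 fell, with transcripts of 5555 and 709 nt. Neither passed with the length offset, where their log2 fold changes were 0.95 and -0.25. The 8 stellate cell markers gave no call in edgeR, with 2 at an unadjusted p under 0.05, at a summed 246 to 278 and 268 to 339 CPM. Among 8 endothelial markers, summed at 258 to 328 and 195 to 310 CPM, 1 rose and 1 fell, and among 5 tested cholangiocyte markers, summed at 39.2 to 61.5 and 50.1 to 69.1 CPM, 1 rose. Of 4 tested lymphocyte markers 1 fell, and of 4 erythroid markers none passed in edgeR, with 2 at an unadjusted p under 0.05. Among all 16672 genes tested, 4968 had an unadjusted edgeR p under 0.05. Of 4 tested markers of pancreas, fat and kidney Plin1 rose, and Cela1 and Nphs1 fell; their summed level was 21.3 to 31.6 CPM with AAV-H19 against 42.0 to 161 CPM with AAV-Null, and Prss2 was at 0. With the length offset Nphs1 passed, and none of the calls among endothelial, cholangiocyte and lymphocyte markers was left. The part of other cell types in the results above was not tested.

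All 14 genes of the 9 lists that were called lost the call when at least 1 library was left out. AAV-H19 27 ended all 14 calls, AAV-H19 25 and 28 ended 13 each and AAV-H19 26 ended 11. AAV-Null 21, 22, 23 and 24 ended 5, 2, 6 and 4. Calls over all genes fell from 934 higher and 1012 lower to 86 and 27 without AAV-H19 27. They were 128 and 53 without AAV-H19 25, 206 and 98 without 26, and 373 and 325 without 28. Without 1 AAV-Null library, 679 to 1023 genes were called higher and 498 to 1050 lower. The loss of calls is thus not shown to be particular to the 14 genes. Ahsg and Clec4f passed with the length offset, and the other 12 did not.

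Levels of different genes were compared per length, as counts per kb of the longest annotated coding transcript scaled to the same sum in every library. Alb was the first of all 55450 genes by this measure and by share of counts. In AAV-H19 livers the order was Alb (73869 ± 8717), Ttr (7059 ± 562), Gc (6793 ± 438), Rbp4 (4701 ± 783), Ambp (3390 ± 315), Asgr1 (537 ± 42.3), Serpina6 (166 ± 23.4) and Asgr2 (150 ± 7.60, SD, n = 4). The ranges over livers of Ttr and Gc overlapped, as did those of Serpina6 and Asgr2, and the other neighbours were apart. In AAV-Null livers Rbp4 (8030 ± 2151) stood above Gc (5379 ± 303) and its range took in that of Ttr (8122 ± 535). Rbp4 was above Gc in each AAV-Null liver, at 6473 to 11182 against 4950 to 5645, and below it in each AAV-H19 liver, at 3945 to 5748 against 6339 to 7380. With the union of exons as length the ranges of Rbp4 and Gc were likewise apart in both groups, in the same directions.

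By count, the 8 genes held 9.86% to 12.03% of all counts in AAV-H19 and 8.70% to 10.2% in AAV-Null livers. Without Alb the other 7 held 1.69% to 1.97% and 2.11% to 2.50%, so the groups were apart in the direction opposite to that of Alb. Rbp4 held 0.319% ± 0.0589 with AAV-H19 against 0.622% ± 0.174 with AAV-Null (mean ± SD, n = 4 livers per group), and Asgr1 0.0411% ± 0.00342 and 0.0773% ± 0.0229. Ambp held 0.226% to 0.286% and 0.262% to 0.355%, Serpina6 0.0125% to 0.0182% and 0.0113% to 0.0235%, and Asgr2 0.0116% to 0.0128% and 0.0073% to 0.0149%. A share is tied to what all other genes take of the same library, Alb included, and genes apart by share were not counted over the whole table.

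**Figure D4:**
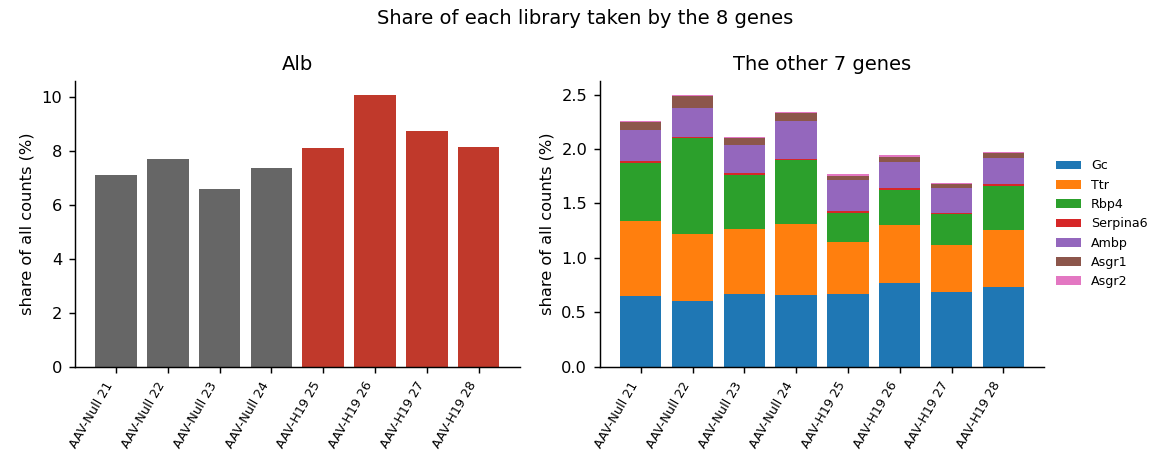
Share of all counts of each library, in percent, held by Alb (left; grey bars AAV-Null, red bars AAV-H19) and, stacked, by the other 7 genes (right). Alb is at 8.09% to 10.1% in AAV-H19 and 6.59% to 7.71% in AAV-Null livers, and the stack of the other 7 is lower in AAV-H19, with Rbp4 the band that differs most in height.

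With the length offset the fitted change of all 8 genes moved upward, to a median of 0.28 from -0.03, with 6 positive and 2 negative values and no call. The median over all genes with the offset was -0.05. Of the 4 genes with negative values before, Rbp4 and Asgr1 were still negative and Ttr and Ambp were not, and Asgr2 had the highest value of the 8, 0.53 ± 0.23 (SE, edgeR adjusted p = 0.205). Alb and Gc were at 0.46 ± 0.18 and 0.40 ± 0.14 (edgeR adjusted p = 0.172 and 0.144). Over all genes the offset left 235 higher and 134 lower of 16672.

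**Figure D5:**
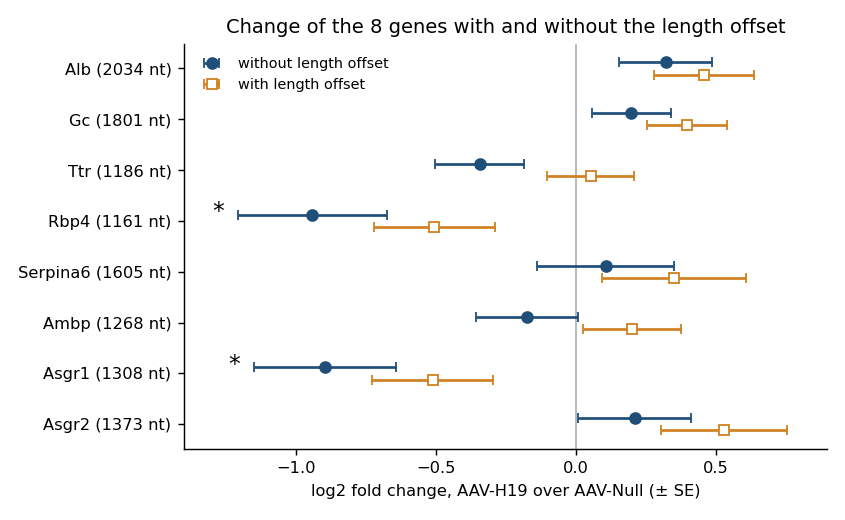
Log2 fold change (AAV-H19 over AAV-Null) of the 8 genes ± SE, without (circles) and with (open squares) an offset for each library's length trend, with annotated coding transcript lengths. Asterisks mark an adjusted p under 0.05, reached by Rbp4 and Asgr1 without the offset and by none of the 8 with it.

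The members varied more among AAV-Null than among AAV-H19 livers. The coefficient of variation of CPM was 4.88% to 18.9% over the 8 genes in AAV-H19 and 5.68% to 40.2% in AAV-Null, and it was higher in AAV-Null for each of the 8. In AAV-Null it was highest for Asgr1 (40.2%, against 7.61% in AAV-H19), then Rbp4 (38.5% against 18.9%), Serpina6 (35.2% against 17.6%) and Asgr2 (26.9% against 6.54%). For Asgr1 and Rbp4, AAV-Null 22 was far the highest liver. Across all genes tested the AAV-Null libraries were also less alike. Their Pearson's r of log2 CPM within the group averaged 0.931 to 0.949, against 0.962 to 0.965 in AAV-H19. The wider spread is thus not shown to be particular to the 8 genes, and the difference between the groups was not tested.

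Likeness of pattern was measured as the root mean square difference of log2 CPM over the 8 libraries, each gene centred on its own mean. Each member was compared with 1227 other genes with a mean of at least 100 CPM. Genes with provisional symbols, such as Gm and Rik names, were left out. Closest to Rbp4 were Atp5j and Tmem14c, at 0.0797 and 0.0832, and closest to Asgr1 were Ndufa8 and Fabp1, at 0.0757 and 0.0923. These 4 genes have transcripts of 553 to 927 nt. Asgr1 was the 31st gene in order from Rbp4, at 0.146, and Asgr2 was 840th in order from Asgr1, at 0.695. Closest to Alb were C1s1 and Pex11a (0.0808 and 0.101), to Gc Pipox and Adipor1 (0.0722 and 0.0763), to Ttr Gsta3 and mt-Co3 (0.0705 and 0.0876) and to Ambp Gjb1 and Ddost (0.0941 and 0.107). Closest to Asgr2 were Cyp2d22 and Cyp4f15 (0.0633 and 0.105), and closest to Serpina6 were Fah and Asgr2 (0.159 and 0.187). With 8 libraries such closeness is a description and says nothing of shared control.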

How the data were processed

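Direct-zol kits were used for RNA and a stranded TruSeq protocol for poly(A) libraries, per the labels' protocols. HISAT and StringTie are named, without roles, per the submitters' processing notes. The sources used here give no build, annotation or counting step. The authors deposited 1 table of estimated counts per Ensembl gene, which they made with no stated normalization, with a column for each of 8 libraries. All values were whole numbers, and the totals differed between libraries. The value 4 occurred in 820 to 990 genes of a library and the value 3 in 226 to 285. A unit is therefore not a read, and the error of counting exceeds what the units alone would give.

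Symbols, lengths and positions came from GENCODE M21 (GRCm38), which matched all 55450 identifiers. The filter (filterByExpr, minimum count 10, minimum total 15) left 16672 genes. These were scaled by TMM and tested with edgeR 4.0.16 under R 4.3.3 (glmQLFit robust, glmQLFTest, group as the only term). P-values were adjusted by Benjamini-Hochberg over all genes tested, at 0.05. The SE is the absolute log2 fold change over the root of F. CPM uses the TMM-scaled library size, and log2 CPM a prior count of 2. Ratios were compared by exact permutation over 70 assignments. Named genes are the members, the called genes of each list (with none, its most abundant), and the 2 genes most like each member; others are said to be chosen afterwards or given as context. The members and lists were chosen with earlier results of these data known. 1 gene of the retinol list is not reported here. The fit was tested on simulated data. Alternatives were size factors of DESeq2, upper-quartile scaling, library sizes leaving out the members, DESeq2 1.42.0, limma-voom (limma 3.58.1), no filter, 1 CPM in 4 libraries, values divided by 4, a length offset (natural spline, 5 degrees of freedom), overlapping genes summed, and each library left out.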

Additional observations from a re-analysis of the deposited data

Results flagged for a closer look

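A test for a lone outlying library was made in 38 groups of 4 values (CPM and shares of the 8 genes and the 3 ratios), and chance flags about 1 in 20. Serpina6 in AAV-Null 21 was at 225 CPM, far above the other AAV-Null livers. Asgr1 in AAV-H19 27 was at 371 CPM, below the other AAV-H19 livers. Asgr2 in AAV-H19 25 was at 135 CPM, above the other AAV-H19 livers. Each of these flags was on CPM, and none of the shares or ratios was flagged.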

How the results depend on the processing

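The calls of Rbp4 and Asgr1 were close to the threshold. The count of called members, 2 in the reported fit, was 0 with DESeq2 size factors, 0 with no filter, 0 with the length offset and 1 with limma-voom (Rbp4). Asgr1 passed in 8 and Rbp4 in 9 of 18 alternatives. Asgr1 had log2 fold changes of -1.05 to -0.51 and edgeR, DESeq2 or limma adjusted p of 0.00875 to 0.2 over them, and Rbp4 -1.09 to -0.51 and 0.00748 to 0.207. In the same alternatives none of the other 6 members passed. Their signs held except for Serpina6 with upper-quartile factors (-0.0011) and, with the length offset, Ttr (0.054) and Ambp (0.20). Over all genes, upper-quartile factors gave 1557 lower genes, with the median of all genes at -0.13, DESeq2 gave 1635 higher and 2010 lower, and the length offset 235 higher and 134 lower. Leaving out each library gave 86 to 1023 higher and 27 to 1050 lower genes and 0 to 2 called members. It gave log2 ratio differences of -1.29 to -0.81 for Asgr1 to Asgr2, -0.65 to -0.36 for Rbp4 to Ttr and -0.20 to -0.07 for Gc to Alb, where an exact permutation test of 3 against 4 livers cannot go below p = 0.0571. With the union of exons as length, the mean level over 8 libraries was 66842 for Alb, 7199 for Gc, 9218 for Ttr and 3748 for Ambp, against 63506, 6086, 7591 and 3432. The cause of these differences was not tested. No paired analysis was possible because the groups share no replicate numbers.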
